A study of Pichia kudriavzevii with 6 samples.

Results

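The 64 genes described here had their lowest transcript level in the medium that held glucose and succinic acid together, and their highest in succinic acid without glucose. They come from 5464 genes measured by RNA sequencing in Pichia kudriavzevii, an acid-tolerant yeast used to make organic acids, in a study that looked for its transporters of C4 dicarboxylic acids. All cells were of strain CY902 with a deletion of URA3, which encodes the orotidine phosphate decarboxylase of uracil synthesis, so the control medium carried the deletion too. Cells grown in glucose medium were washed and moved for 3 hours to medium of pH 5.0 with succinic acid at 2% and no glucose (SoleS), with glucose at 2% and succinic acid at 2% (GS), or with glucose at 2% alone (SoleG). Each medium had 2 libraries. Nothing in the labels says whether these came from separate cultures, and the pH was set with base in each medium. The part of succinic acid in GS cannot be told apart from that of the base it brought, and in SoleS it cannot be told apart from the loss of glucose, since no medium lacked both.

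The genes were selected on CPM, counts scaled by the total of their library, in these same libraries. The mean CPM of the 2 libraries of a medium plus 1 had to be at most 0.6 times the SoleG value in GS, at least 1.5 times but under 16 times the SoleG value in SoleS, and at least 10 in SoleS. These values chose the genes, so their order across the 3 media is a description with no test, and no p-value is given for it.

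In yeasts, glucose holds down many genes for the use of other carbon sources, a control best known from Saccharomyces cerevisiae as glucose repression. Succinic acid is an intermediate of the tricarboxylic acid cycle. It enters yeast cells through plasma membrane carriers, or as the undissociated acid, and its carbon reaches sugars through gluconeogenesis. GS and SoleG both held glucose, so the comparison of these media shows how the genes differed where glucose was present throughout. The files give each gene an ID beginning with PK and do not pair it with a name. None of the IDs matched the reference gene table, so the genes are described by ID, coding length and level, without a role. Near-identical copies could not be recognised either, and the handling of strand in the counting is not given, so reads of overlapping genes may be shared between them.

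Library totals ran from 6024768 to 6959188 counts. The squared difference between the libraries of a medium was on average over genes 3.98 times its sampling variance in SoleS. It was 2.83 times in GS and 5.69 times in SoleG, so they were distinct libraries. A count of 0 would allow up to 3 counts, or 0.431 to 0.498 CPM depending on the library. No member was at 0 in any library, and all 64 passed the filter on low counts. These limits and all counting intervals cover counting error only.

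In SoleS the 64 genes took 3.70% and 3.60% of all counts, in GS 0.334% and 0.335%, and in SoleG 0.684% and 0.626%. Their joint share was thus lowest in the mixed medium and its library values did not overlap between media. The median level over the genes was 163 and 162 CPM in the SoleS libraries, 17.3 and 18.5 CPM in the GS libraries, and 41.9 and 36.6 CPM in the SoleG libraries. The ratio of GS to SoleG ran from 0.179 to 0.599 with a median of 0.522, and that of SoleS to SoleG from 1.51 to 14.8 with a median of 2.84. Between SoleS and GS, media that both held succinic acid, the ratio ran from 2.66 to 36.6 with a median of 6.16 and quartiles of 3.83 and 11.3. All 64 genes were lower in both GS libraries than in both SoleG libraries, a pattern that 52.2% of the 5280 tested genes had. All 64 were also higher in both SoleS libraries than in both SoleG libraries, against 38.0% of tested genes, and higher than in both GS libraries, against 44.3%. The rule used each of these contrasts, so nothing is read from these counts.

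**Figure D1:**
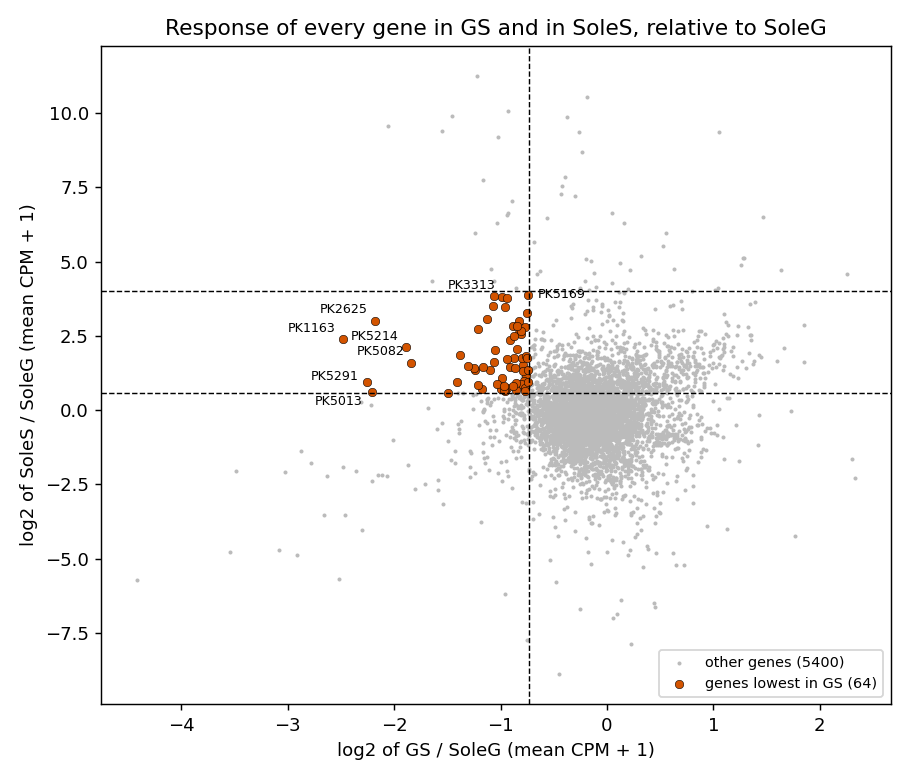
Each point is 1 of 5464 genes, placed by the log2 ratio of GS to SoleG (horizontal) and of SoleS to SoleG (vertical), from mean CPM plus 1. Dashed lines are the bounds 0.6, 1.5 and 16 of the rule, and the 64 genes (orange) fill the box to the left of the first and between the others, with 6 of them standing apart at a GS to SoleG ratio of 0.3 or less.

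The decrease in GS was modest for most of the genes and deep for a few. The GS level was 0.3 times the SoleG level or less in 6 genes, above 0.3 and up to 0.5 times in 17, and above 0.5 times in the other 41, of which 24 lay above 0.55. The rise in SoleS was spread more widely. It was below 2 times the SoleG level in 21 genes, from 2 to below 4 in 20, from 4 to below 8 in 14, and 8 or more in 9. Both changes reached 2-fold in 16 genes by the values of the rule. By ID these were PK0226, PK1163, PK2044, PK2056, PK2625, PK2676, PK2965, PK3402, PK3412, PK4088, PK4221, PK4489, PK4963, PK5072, PK5082 and PK5214. The list depends on the scaling. In the fit with TMM scaling, PK0226, PK4489 and PK4963 fell short of 2-fold in GS, with log2 differences of -0.92, -0.94 and -0.93. In that fit PK0601, PK3313, PK4984 and PK5291 reached 2-fold in both directions.

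Of the 16 listed genes, PK4088 and PK3402 were the most abundant not described further on. PK4088, of 1755 bases, had 1005 and 1022 CPM in SoleS, 66.0 and 63.2 CPM in GS, and 163.6 and 137.3 CPM in SoleG. PK3402, of 537 bases, had 875.4 and 885.8 CPM in SoleS, 130.9 and 145.6 CPM in GS, and 364.4 and 297.7 CPM in SoleG. In both genes the library values of the 3 media did not overlap. PK2965, of 606 bases, had 159.2 and 166.5 CPM in SoleS, 29.2 and 23.3 CPM in GS, and 67.7 and 59.3 CPM in SoleG. PK2056, PK3412 and PK5072 followed the same order at low levels, with SoleG libraries between 4.51 CPM, for PK5072, and 15.6 CPM, for PK3412.

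The 8 genes with the lowest GS level relative to SoleG began with PK1163, of 1827 coding bases. PK1163 was at 266.6 and 279.0 CPM in SoleS, 8.90 and 7.98 CPM in GS, and 57.5 and 45.7 CPM in SoleG. Its GS libraries held 110 counts together and its SoleG libraries 687, a ratio with a 95% exact counting interval of 0.133 to 0.201. This and the later counting intervals are of the count ratio scaled by library totals, without the 1 CPM that the rule added. On the log2 scale after TMM scaling, PK1163 differed by -2.46 ± 0.15 (SE of the fit, n = 2 libraries a medium) between GS and SoleG and by 2.55 ± 0.09 between SoleS and SoleG. It therefore lay about as far below SoleG in GS as above it in SoleS on that scale. PK2625, of 1638 bases, had 509.8 and 514.0 CPM in SoleS, 10.5 and 15.5 CPM in GS, and 66.1 and 59.0 CPM in SoleG. It had the widest gap of all 64 genes between the media with succinic acid, with SoleS at 36.6 times GS, and its log2 differences from SoleG were -2.13 ± 0.13 in GS and 3.18 ± 0.09 in SoleS.

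PK5291 and PK5013 also fell deeply in GS but rose little in SoleS. PK5291, of 1134 bases, had 180.2 and 172.8 CPM in SoleS, 19.0 and 17.4 CPM in GS, and 102.4 and 78.4 CPM in SoleG. PK5013, of 1815 bases, had 201.7 and 214.8 CPM in SoleS, 26.7 and 30.6 CPM in GS, and 139.1 and 133.1 CPM in SoleG. The GS levels of both were near 0.21 times SoleG, at 0.210 and 0.216, while SoleS lay 1.94 and 1.53 times above SoleG. In both genes SoleS lay above SoleG without overlap, by a smaller factor than GS lay below it. PK5013 lay just inside the lower bound for SoleS and no longer met the rule without SoleS replicate 2 or without SoleG replicate 2.

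PK5214, PK5082, PK4836 and PK0601 completed the 8. PK5082, of 1707 bases, had 236.4 and 289.8 CPM in SoleS, 25.2 and 21.5 CPM in GS, and 97.0 and 75.2 CPM in SoleG. PK0601, of 2004 bases, had 245.9 and 238.2 CPM in SoleS, 46.7 and 46.6 CPM in GS, and 130.8 and 119.7 CPM in SoleG. Both were expressed well above the counting limit in every library. The libraries of a medium stood close together for PK0601 and further apart for PK5082 in SoleS and SoleG, without overlap between media. PK5214, of 1404 bases, had 29.7 and 34.9 CPM in SoleS, 1.19 and 0.957 CPM in GS, and 6.76 and 6.62 CPM in SoleG. Its GS level rests on 14 counts over both libraries, and the counting interval of its GS to SoleG count ratio ran from 0.0845 to 0.284. PK4836, of 1755 bases, was weakly expressed everywhere, at 15.5 and 14.3 CPM in SoleS, 3.11 and 2.39 CPM in GS, and 10.2 and 8.88 CPM in SoleG.

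**Figure D2:**
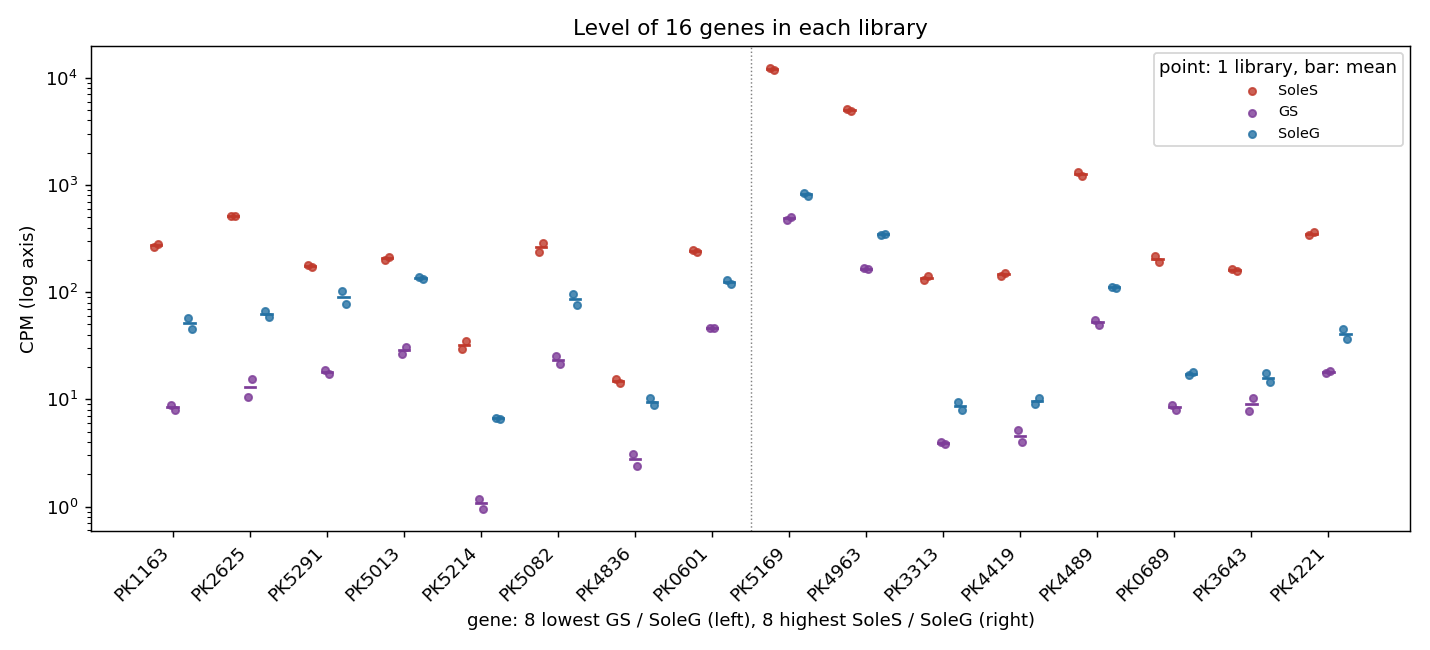
CPM on a log axis in each library (points) and the mean of a medium (short bars) for the 8 genes lowest in GS relative to SoleG (left) and the 8 highest in SoleS relative to SoleG (right). In each gene the GS points (purple) lie below the SoleG points (blue) and the SoleS points (red) above them, from about 1 CPM for PK5214 in GS to over 11861 CPM for PK5169 in SoleS.

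The 8 genes with the largest rise in SoleS had a different balance, with rises far larger than their decreases in GS. PK5169, of 1575 bases, was the most abundant of the 64 in SoleS, at 12341 and 11861 CPM, against 470.3 and 506.0 CPM in GS and 848.1 and 783.7 CPM in SoleG. This gene alone took 1.21% ± 0.03 of the SoleS counts, 0.0488% ± 0.0025 of the GS counts and 0.0816% ± 0.0046 of the SoleG counts (SD, n = 2). PK5169 also lay at the edge of the rule on 2 sides, with a GS to SoleG ratio of 0.599 and a SoleS to SoleG ratio of 14.8. PK4963, of 3102 bases, had 5072 and 4947 CPM in SoleS, 166.5 and 165.7 CPM in GS, and 344.9 and 352.4 CPM in SoleG. The libraries of each medium lay close together for this gene, and its GS level was 0.478 times and its SoleS level 14.3 times that of SoleG.

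PK3313 and PK4419 were scarce whenever glucose was present. PK3313, of 801 bases, had 130.9 and 141.4 CPM in SoleS, 4.003 and 3.828 CPM in GS, and 9.46 and 7.97 CPM in SoleG. PK4419, of 1272 bases, had 142.4 and 151.2 CPM in SoleS, 5.19 and 3.99 CPM in GS, and 9.16 and 10.2 CPM in SoleG. Their GS levels rest on 51 and 60 counts over both libraries. The counting intervals of the GS to SoleG count ratio were 0.317 to 0.630 and 0.344 to 0.651. Both intervals reach past 0.6, though the bound of the rule was set on values with 1 CPM added. They stay below 1, but these same counts chose the genes, so nothing is read from this. PK4489, of 825 bases, combined a strong rise with a high level, at 1318 and 1210 CPM in SoleS, 55.01 and 49.61 CPM in GS, and 113.0 and 108.9 CPM in SoleG. PK0689, of 1089 bases, had 216.0 and 190.7 CPM in SoleS, 8.90 and 7.98 CPM in GS, and 16.8 and 17.9 CPM in SoleG.

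The remaining genes of this group were PK3643 and PK4221. PK4221, of 1902 bases, had 338.4 and 365.3 CPM in SoleS, 17.8 and 18.5 CPM in GS, and 45.2 and 36.6 CPM in SoleG, so that GS was at 0.457 times SoleG. PK3643, of 1344 bases, had 165.8 and 159.0 CPM in SoleS, 7.86 and 10.4 CPM in GS, and 17.6 and 14.4 CPM in SoleG. Its log2 difference between GS and SoleG was -0.67 ± 0.18, and it was -0.54 without SoleG replicate 1 and -0.49 without GS replicate 1. In both of those fits PK3643 was not called lower in GS.

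**Figure D3:**
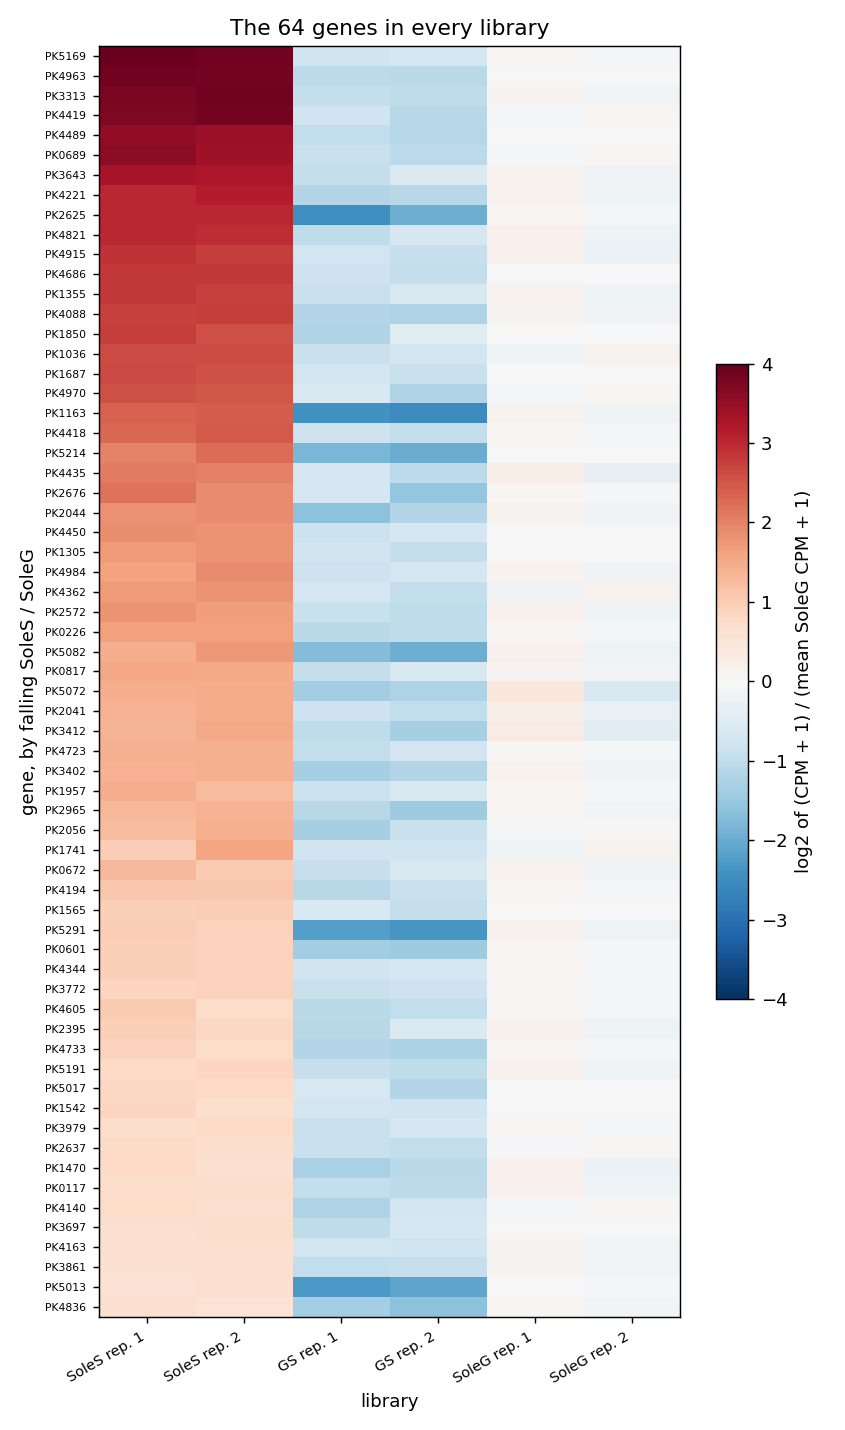
Log2 of CPM plus 1 in each library, relative to the mean SoleG value of the same gene, for the 64 genes ordered by their SoleS to SoleG ratio (colour scale from -4, blue, to 4, red). The GS columns are blue in every row, darkest for PK1163, PK5291, PK5013 and PK2625, and the SoleS columns are red in every row, darkest for PK5169 and palest for PK4836.

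Levels were compared between genes as FPKM, counts per coding length and per library total, computed from the counts and each library's own total. In SoleS the median of the 64 genes was 121 FPKM, in GS 13.7 FPKM and in SoleG 33.5 FPKM, while the median of all 5464 genes was 40.2, 40.6 and 45.7 FPKM in those media. The median of the 64 was thus somewhat below that of all genes in SoleG, further below it in GS and above it in SoleS. The rule fixed the direction of these moves between media, so they are a description. The 64 genes lay above the median of all genes in 48 of 64 cases in SoleS, 18 in GS and 26 in SoleG. Of the 64 genes, 15 were among the highest 10% of all genes in SoleS, 4 in GS and 6 in SoleG.

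A few short or abundant genes were already well expressed in glucose. PK4723, of 315 coding bases, had the highest level per length of the 64 in SoleG, with means of 3493 FPKM in SoleS, 714.6 FPKM in GS and 1303 FPKM in SoleG. PK0226, of 222 bases, had 2538 FPKM in SoleS, 389.4 FPKM in GS and 815.5 FPKM in SoleG. PK1687, of 1143 bases, had 4107 FPKM in SoleS, 390.8 FPKM in GS and 686.2 FPKM in SoleG. In CPM, PK1687 was at 4844 and 4546 in SoleS, 469.1 and 424.3 in GS, and 781.0 and 787.6 in SoleG. PK4163, of 1221 bases, was nearly as abundant in glucose but had the smallest gap of all 64 between SoleS and GS, at 2.66 times, with 1118 and 1130 CPM in SoleS, 432.9 and 410.7 CPM in GS, and 776.9 and 660.8 CPM in SoleG. The 3 genes with the most counts in SoleS, PK5169, PK4963 and PK1687, held 59.8% of the counts of all 64 there. Without PK5169 the joint share was 2.44% in SoleS, 0.286% in GS and 0.573% in SoleG, in the same order.

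**Figure D4:**
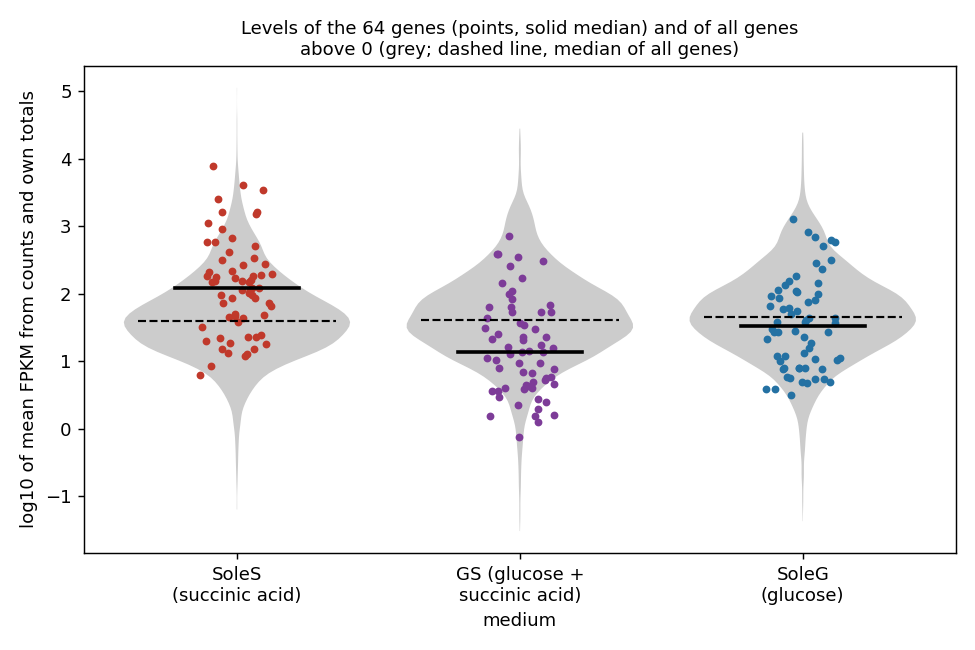
Log10 of the mean FPKM in each medium for the 64 genes (points, with a solid line at their median) over the distribution of all genes above 0 (grey, with a dashed line at the median of all genes). The solid line is above the dashed line in SoleS (121 against 40.2 FPKM) and below it in GS (13.7 against 40.6) and SoleG (33.5 against 45.7).

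The 37 genes not named by the rule for naming lay between these extremes. Their GS to SoleG ratios ran from 0.405 to 0.599, their SoleS to SoleG ratios from 1.55 to 7.93 and their SoleS to GS ratios from 2.86 to 15.5. Genes with a SoleS to SoleG ratio of 4 to below 8 had a median level of 11.6 FPKM in SoleG, and those of 8 or more had 21.5 FPKM. Those below 2 had 62.5 FPKM and those from 2 to below 4 had 39.5 FPKM. The bound of 10 on the SoleS value and the offset of 1 CPM act on weak genes, so this difference in level is not independent of the rule.

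The bounds of the rule ran through a continuous spread on the side of GS. Just inside the bound of 0.6 were PK4344 at 0.5994 and PK5169 at 0.5988, and just outside were PK2852 and PK4810 at 0.6002 each, with 44.3 and 43.5 CPM and 33.8 and 38.9 CPM in GS. PK4344 itself had 181.8 and 178.9 CPM in SoleS, 54.0 and 57.6 CPM in GS, and 98.1 and 89.4 CPM in SoleG. At the lower bound for SoleS, PK4836 (1.51) and PK5013 (1.53) were inside and PK3926 (1.49) and PK4414 (1.48) outside. At the upper bound PK5169 (14.8) and PK4963 (14.3) were inside and PK2300 (17.2) and PK4817 (20.3) outside. In all, 16 genes met the other bounds but rose 16-fold or more. PK4984 and PK2395 had the lowest SoleS levels of the 64, at 8.48 and 10.5 CPM and at 13.7 and 12.5 CPM. PK0761 and PK0760, next below that bound, had SoleS values of 6.57 and 6.14.

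Libraries of the same medium differed little in SoleS and more in the other media for these genes. The larger of the 2 library values was 1.06 times the smaller at the median in SoleS, 1.14 times in GS and 1.13 times in SoleG, against 1.080, 1.075 and 1.085 times over all tested genes with counts in both libraries. The largest ratio was 2.38, for PK2676 in GS, with 30.6 and 25.4 CPM in SoleS, 3.41 and 1.44 CPM in GS, and 6.46 and 5.72 CPM in SoleG. Of the 64 genes, 50 were higher in SoleG replicate 1 than in SoleG replicate 2, while 59.2% of all tested genes were. The part of this difference between the SoleG libraries in the selection was not tested. With SoleG replicate 1 left out 47 of the 64 genes met the rule and 17 did not, the largest loss for any 1 library. With SoleG replicate 2 left out 55 met it and 9 did not.

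Counting error was widest in the weakly expressed genes. In 4 genes a GS library held fewer than 10 counts, with 5 as the lowest count of any member in any library. PK2044, the shortest at 117 bases, had 18.1 and 19.1 CPM in SoleS, 0.741 and 1.44 CPM in GS, and 4.96 and 3.91 CPM in SoleG. It had 14 counts in GS and an interval of 0.125 to 0.440 for its GS to SoleG count ratio of 0.243. With the 1 CPM added in the rule its ratio was 0.384, so in weak genes the interval and the bound refer to different ratios. The interval of the count ratio reached above 0.6 in 31 of the 64 genes. It stayed below 1 in all 64, but the rule chose them on these same counts, so nothing is read from this. PK1850, the longest at 3627 bases, was not scarce but had GS libraries that differed, at 15.3 and 25.7 CPM, with 252.8 and 224.1 CPM in SoleS and 37.1 and 36.1 CPM in SoleG. Its log2 difference between GS and SoleG was -0.70 ± 0.16, and it was -0.37 and not called without GS replicate 1.

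Coding length was not used by the rule. The median over the 64 genes was 1246.5 bases, against 1215 for all 5464 genes and 1248 for the 5280 tested genes. Short genes were near their share among the tested genes, and long genes were less common. Lengths below 600 bases were found in 9 of 64 genes (14.1%), against 17.6% of tested genes, and lengths of 2100 bases or more in 6 of 64 (9.38%), against 20.2%. The 81 genes that were lower than SoleG in GS by the same bound and also at least 1.5 times lower in SoleS, with a SoleG value of at least 10, had a median of 1410 bases. The 34 genes with the reverse pattern, highest in the mixed medium, had 1126.5 bases. In SoleG the median level was 85.9 FPKM for the 81 genes and 403 FPKM for the 34. The 3 sets have their lower bound on level in different media (SoleS for the 64, SoleG for the 81 and GS for the 34), so their levels in SoleG are partly set by the rules and were not ranked. The differences in length were not tested.

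ID numbers are the only hint of gene order in the files, and whether adjacent numbers are neighbours in the genome is not given. PK4418 and PK4419 were the only members with adjacent numbers. PK4418, of 627 bases, had 86.7 and 97.9 CPM in SoleS, 9.04 and 8.14 CPM in GS, and 18.0 and 15.9 CPM in SoleG. Per coding length, PK4418 was the higher of the pair in all 3 media. The means were 147.2 against 115.4 FPKM in SoleS, 13.7 against 3.61 FPKM in GS and 27.1 against 7.62 FPKM in SoleG. The levels of the pair were thus not in a fixed ratio across media. Of 120 tested genes that are no members but carry a number next to a member's, 21 (17.5%) were called lower in GS than in SoleG, against 17.6% of all tested genes, and 48 (40.0%) were called higher in SoleS than in SoleG, against 38.2%. In SoleS against GS, 54 (45%) were called higher, against 40.0% of all tested genes. Their median log2 differences were -0.08 in GS and 0.09 in SoleS relative to SoleG, and 0.11 in SoleS relative to GS, against -0.008, -0.026 and -0.001 over all tested genes. None of these differences from the whole table was tested.

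Members were more frequent among high ID numbers. Of genes numbered 4000 or more, 30 were members (2.05%), against 34 of those below 4000 (0.850%). This bound was chosen after the values were seen. Calls of single comparisons did not lean the same way to that extent. Among tested genes numbered 4000 or more, 19.8% were called lower in GS than in SoleG, against 16.7% below 4000, and 37.6% were called higher in SoleS than in SoleG, against 38.4%. Members numbered 4000 or more had a median level of 52.9 FPKM in SoleG, against 27.8 FPKM for the others, and median SoleS to GS ratios of 7.25 and 5.72.

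In the model fitted to all genes (edgeR, quasi-likelihood F test, with an adjusted p below 0.05 over all tested genes), 62 of the 64 genes were called lower in GS than in SoleG, where 17.6% of all tested genes were. The exceptions were PK1741 and PK4984, with log2 differences of -0.79 ± 0.32 and -1.15 ± 0.54. PK1741 had 15.4 and 24.1 CPM in SoleS, 3.86 and 3.83 CPM in GS, and 6.46 and 8.27 CPM in SoleG. PK4984 had 11 counts over both GS libraries and 28 over both SoleG libraries. All 64 were called higher in SoleS than in SoleG, against 38.2% of tested genes, and higher in SoleS than in GS, against 40.0%. The rule chose the genes on these contrasts, so these counts are given with no weight.

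How deep the decrease in GS was depended on how libraries were scaled. By total counts, as the rule does it, the median of all tested genes was itself shifted by -0.15 on the log2 scale between GS and SoleG and by -0.17 between SoleS and SoleG, and by -0.01 between SoleS and GS. TMM factors, which assume that most genes do not change, removed these shifts to within 0.03. In the fit itself 4178 of 5280 tested genes were called, in either direction, between SoleS and SoleG, and 4191 between SoleS and GS. The assumption is therefore doubtful for SoleS, and which scaling is right there was not tested. The median log2 difference of the 64 genes after TMM scaling was -0.86 between GS and SoleG, 1.75 between SoleS and SoleG and 2.69 between SoleS and GS. With TMM-scaled CPM in the rule, 43 genes met it, 38 of them among the 64. All 26 genes that left did so because their GS to SoleG ratio rose above 0.6, the highest to 0.662, and PK5169 also passed 16-fold in SoleS. All 64 kept a GS value below and a SoleS value above that of SoleG under TMM, RLE and upper-quartile sizes. The factors of these scalings differed too little between libraries to carry a gene from the bounds of the rule past the SoleG level. The selection had therefore fixed this result, and nothing is read from it. In all, 24 genes met the rule under each of these 3 scalings and with each library left out. Among them were PK1163, PK2625, PK5291, PK5214, PK5082 and PK0601 of the deepest decreases and PK4489, PK0689 and PK4221 of the largest rises.

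**Figure D5:**
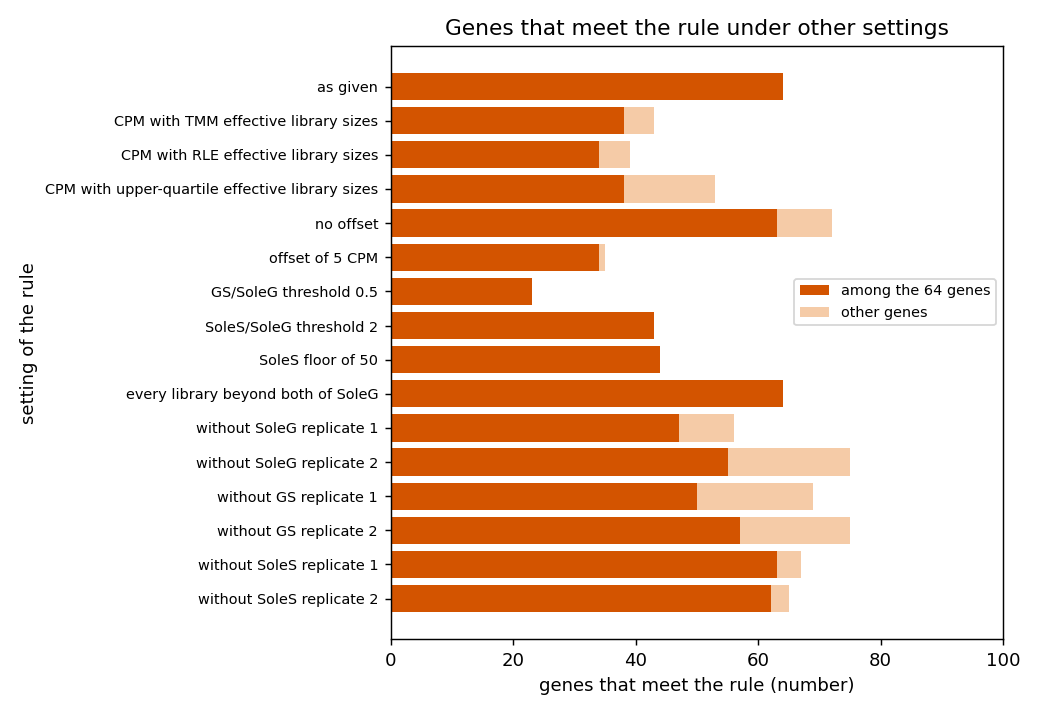
Number of genes that met the rule as given and under each other setting (bars), split into those among the 64 (dark) and others (light). The count was between 23 with a bound of 0.5 for GS and 75 with SoleG replicate 2 or GS replicate 2 left out, and 38 of the 64 remained with TMM effective library sizes.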

How the data were processed

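RNA of 6 libraries, 2 for each medium, was sequenced. The submitters' processing notes name Bowtie2 2.2.5. How reads were counted, on which genome build and with which annotation, is not given in the sources used here. Each file holds 5464 genes with a coding length, a whole-number count and an FPKM value, per the file headers. The deposited FPKM values equal the count divided by coding length and library total, except in GS replicate 2, where the total of GS replicate 1 was used. FPKM was therefore recomputed from the counts deposited by the authors. Blank lines ending 2 files were dropped.

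CPM in the text is by total counts unless TMM is named. Genes passing filterByExpr (5280) were fitted with edgeR 4.0.16 in R 4.3.3 (TMM factors, 1 model over 3 media, estimateDisp, glmQLFit, glmQLFTest, 3 residual degrees of freedom), and p-values were adjusted over all tested genes. The standard error is the log2 fold change divided by the square root of F. The test was first run on simulated counts in which few genes changed, in a single medium at a time and in both directions. That is unlike SoleS, where most tested genes were called, so the run does not bear on the scaling there. Nothing says that the libraries of a medium came from separate cultures, so their spread, on which the p-values rest, may be technical. Intervals of count ratios are Clopper-Pearson at 95%, without the 1 CPM that the rule added.

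The members, bounds and settings were chosen with earlier results of these data known. Genes named are the 8 with the lowest GS to SoleG, the 8 with the highest SoleS to SoleG and SoleS to GS ratios, the 6 highest in SoleS by CPM, the 3 highest in SoleG by FPKM, the longest, the shortest, that with the largest difference between libraries, those beside each bound and those with adjacent numbers. Exceptions singled out after their values were seen are PK1741 and the genes listed as changed 2-fold in both directions. No pathway list could be matched to the IDs. Other settings were RLE and upper-quartile factors, total counts, DESeq2 1.42.0, limma-voom (limma 3.58.1), other filters, fits to 2 groups, a block for the replicate number, leaving out each library, and other offsets and bounds of the rule.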

Additional observations from a re-analysis of the deposited data

How the results depend on the processing

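The set of genes depended on the scaling, offset and bounds of the rule. The direction of its members was not put to a test by these settings, since the rule had fixed it on the same libraries. The rule was met by 39 genes with RLE effective library sizes, 35 with an offset of 5 CPM and 23 with a bound of 0.5 for GS, against 64 as given. In the other settings run with all libraries it was met by 43 to 72 genes. When any 1 library was dropped it was met by 56 to 75 genes, fewest without SoleG replicate 1. Of the 64 genes, 33 met the rule with each library left out in turn. The share of counts was 1.42% in SoleS, 0.122% in GS and 0.287% in SoleG for the genes chosen with TMM effective library sizes, which no longer include PK5169, and 2.44%, 0.286% and 0.573% for the 64 genes without PK5169. The calls of all tested genes, counted in both directions together, stayed within 1.5 times their number in every setting. When a library was dropped they were 1363 to 1975 (GS against SoleG), 3913 to 4171 (SoleS against SoleG) and 3865 to 4230 (SoleS against GS). Of the 64 genes, 57 to 63 were called lower in GS in the settings other than leaving out a library. All 64 were called in both other comparisons. Some fits with a library left out called fewer than 57 lower in GS, with 1 library in a group. In the main fit 17.6% of all tested genes were called lower in GS, 38.2% higher in SoleS than in SoleG and 40.0% higher in SoleS than in GS. These shares are not given for the other settings. The rule chose the genes on these contrasts, so the counts of members called have no weight. A group left with 1 library was assumed to vary like the others. No named gene changed direction in the fits, which the bounds of the rule left little room for. In 13 of 405 refits of a named gene between GS and SoleG its call ended, for PK1850, PK2395, PK2676 and PK3643. The 405 include the refits of PK4984, which had no call to lose in the main fit. Libraries with the same replicate number were not paired, since the differences between replicates correlated at 0.05 between SoleS and GS, -0.10 between SoleS and SoleG and -0.04 between GS and SoleG. With the replicate block, 62 of the 64 genes were called lower in GS, again with no weight. The count of all genes called there, in both directions together, was 1910 for GS against SoleG, 4142 for SoleS against SoleG and 4162 for SoleS against GS. Depth limits the genes with few GS counts, whose ratios carry the widest counting intervals.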
